A study of Mus musculus with 30 samples.

Results

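The genes of dietary fat uptake and lipoprotein assembly were followed in the epithelial layer scraped from the colon of C57BL/6J wild-type mice. The set holds 8 genes, *Rbp2*, *Apoa1*, *Apoa4*, *Apob*, *Mttp*, *Fabp1*, *Fabp2* and *Cd36*, chosen by name from a table of 46078 genes. A filter on low counts left 16261 genes for testing, and 6 of the 8 passed it. *Apoa1* and *Apoa4* did not pass. The samples were 30 libraries from 30 mice in 6 groups of 5, with females and males in equal number. Vehicle mice received an injection of saline and were killed at 9 weeks. AOM/DSS mice received azoxymethane (AOM, a carcinogen) once at 10 mg/kg by intraperitoneal injection and then dextran sulfate sodium (DSS, which injures the colon lining) at 2.5% in the drinking water in 3 cycles, and were killed at 9 or 15 weeks. Since every vehicle mouse was killed at 9 weeks, the effect of AOM/DSS at 15 weeks and that of the later time cannot be told apart. Both AOM/DSS times were compared with the same vehicle libraries, and the 2 comparisons therefore share their controls. The age of each mouse and the stretch of colon that was scraped are not in the labels.

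Fat absorption is a task of the small intestinal enterocyte. Fatty acids enter the cell with the help of CD36, are bound in the cytosol by the fatty acid binding proteins FABP1 and FABP2, are rebuilt into triglyceride, and are loaded by microsomal triglyceride transfer protein (MTTP) onto apolipoprotein B to form chylomicrons that carry APOA1 and APOA4. RBP2, the cellular retinol-binding protein of enterocytes, handles the vitamin A absorbed with the fat. The colon absorbs little fat, its proximal end resembles the small intestine more than its distal end does, and CD36 is also a protein of capillary endothelium, fat cells and macrophages.

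Counts on genes ran from 9265804 to 30806392 per library with a median of 24697064, and 3 counts, taken as the limit that a count of 0 allows, were worth 0.0921 to 0.320 CPM (counts per 1000000, on library sizes scaled by the TMM method). Intervals and limits of this kind cover counting error only, since duplicate reads were not removed. The epithelial genes *Epcam* (1312 to 1862 CPM) and *Cdh1* (961 to 1749 CPM) were high in every library. Male vehicle replicate 1 stood apart with 1400 CPM of the smooth muscle gene *Myh11* against a median of 5.72 over the 30 libraries. The comparisons of members with vehicle males that it moves most are given with and without it. Calls of cell type markers and fits that include a marker score are given only with it.

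The 8 genes covered a wide range of levels. On the length-scaled TPM scale (transcripts per 1000000), which allows genes to be compared within a library, the median over 30 libraries was 160 for *Fabp2*, 17.5 for *Rbp2*, 9.25 for *Apob*, 0.560 for *Mttp*, 0.554 for *Fabp1*, 0.181 for *Cd36* and 0 for *Apoa1* and *Apoa4*. *Fabp2* was the highest of the 8 in 28 libraries and *Rbp2* in the other 2, and *Rbp2* lay above *Apob* in 27 of 30. The ratio of *Fabp2* to *Rbp2* TPM ran from 0.135 to 23.8 with a median of 10.5. *Mttp* and *Fabp1* had nearly the same median and are not ordered by it. TPM was not compared between libraries, because the short mitochondrial gene *mt-Nd4l* took 39.2% to 58.1% of it with 14 to 148 counts, and the ratio of TPM to CPM for *Fabp2* ran from 0.190 to 0.867. All comparisons between libraries used CPM.

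**Figure D1:**
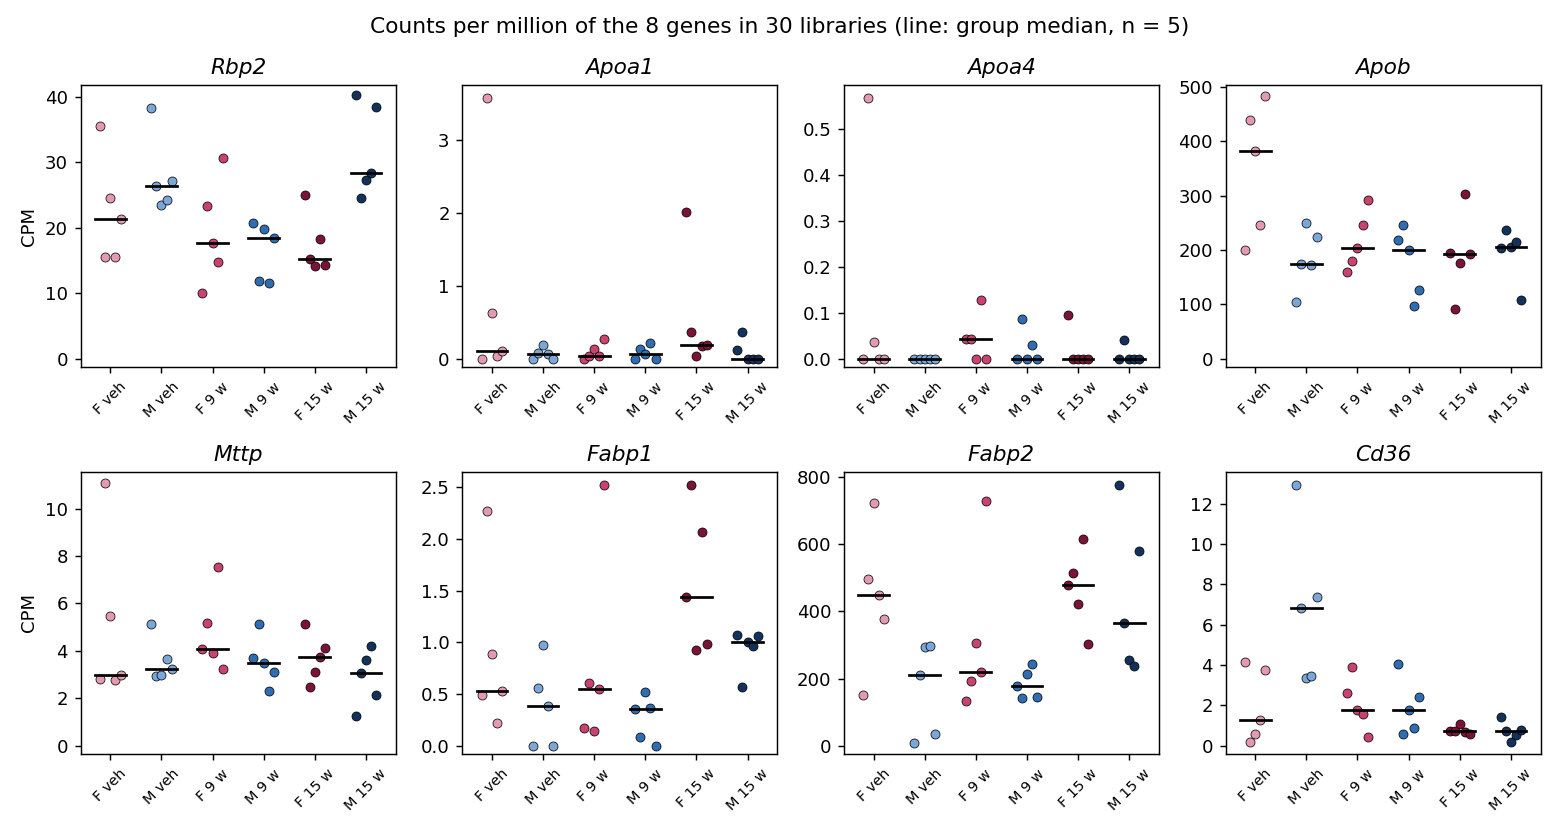
CPM (linear axis) of each of the 8 genes, 1 point per library in replicate order and a line at the median of each group of 5 (F, females; M, males; veh, vehicle; w, weeks). *Fabp2* runs from 7.39 to 778 CPM, *Cd36* falls to between 0.161 and 1.42 CPM in the 10 libraries at 15 weeks, and *Apoa1* and *Apoa4* stay near 0 apart from a few libraries.

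*Fabp2*, the intestinal fatty acid binding protein (ENSMUSG00000023057, GRCm38 chromosome 3 from 122895072 to 122899506, plus strand), varied widely between mice of the same group. In female vehicle libraries it was 151, 496, 723, 448 and 376 CPM in replicates 1 to 5, and in male vehicle libraries 7.39, 212, 295, 297 and 36.1 CPM. At 9 weeks it was 132, 194, 305, 219 and 729 CPM in females and 177.8, 142.4, 213.6, 244.5 and 144.2 CPM in males. Male vehicle replicates 1 and 5 were the lowest of all 30 libraries, female 9-week replicate 5 stood above the other 4 of its group, and in each sex the vehicle and 9-week groups overlapped. At 15 weeks it was 479, 515, 421, 617 and 302 CPM in females and 778, 366, 254, 236 and 579 CPM in males. In each sex these values overlapped with vehicle. The highest library was 105 times the lowest over the series, and within a group the ratio of highest to lowest ran from 1.72 in males at 9 weeks to 40.2 in vehicle males.

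*Fabp1*, the liver-type fatty acid binding protein that the small intestine shares with the liver (ENSMUSG00000054422, chromosome 6 from 71199827 to 71205023, plus strand), was present at trace level, 0 to 58 counts per library. It had no counts in male vehicle replicates 1 and 5 and male 9-week replicate 5. The highest values were 2.53 CPM in female 9-week replicate 5, 2.52 and 2.07 CPM in female 15-week replicates 2 and 4, and 2.27 CPM in female vehicle replicate 2. *Fabp1* and *Fabp2* moved together across libraries, with Spearman's rho of 0.76 over 30 libraries and Pearson's r of 0.69 after each group's mean was removed. These correlations are given as descriptions, over libraries that share their depth and make-up. *Cd36* was opposed to both, with rho of -0.57 to *Fabp2* and -0.62 to *Fabp1*, and among the other pairs of the 6 tested genes rho ran from -0.30 to 0.29.

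The 250 bases before the RefSeq start of these paired genes are shown because they are the members that moved together. They come from RefSeq on GRCm38.p6, at chr3:122894822-122895071 for *Fabp2* and chr6:71199629-71199878 for *Fabp1*, both on the plus strand and written 5′ to 3′. Capitals mark matches to CAAAGNNCA on either strand, a letter pattern contained in elements that bind the enterocyte factor HNF4A.
Fabp2: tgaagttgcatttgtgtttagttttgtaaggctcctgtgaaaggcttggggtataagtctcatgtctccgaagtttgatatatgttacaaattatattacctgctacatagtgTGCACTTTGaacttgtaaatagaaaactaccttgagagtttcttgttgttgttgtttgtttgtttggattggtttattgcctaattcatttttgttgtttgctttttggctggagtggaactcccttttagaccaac
Fabp1: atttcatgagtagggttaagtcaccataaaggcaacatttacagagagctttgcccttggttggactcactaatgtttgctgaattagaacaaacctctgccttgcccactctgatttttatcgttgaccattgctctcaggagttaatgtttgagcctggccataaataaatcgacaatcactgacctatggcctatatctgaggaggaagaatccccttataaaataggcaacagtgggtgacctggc
The pattern was found in 1479 of 27025 promoters of this length (5.47%). It occurred once in *Fabp2*, as TGCACTTTG with its first base 137 bases before the start, and not in *Fabp1*. Of the 8 genes, *Rbp2* held 2 matches, *Apoa4*, *Apob* and *Fabp2* held 1 each, and *Apoa1*, *Mttp*, *Fabp1* and *Cd36* held none. Each gene was taken at a single RefSeq start. A match is a description of these letters and says nothing about binding.

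The stretch of colon sampled was not recorded, so the members were related to marker scores of the distal and proximal colon, each the mean log2 CPM of 7 genes. The distal list held *Hoxb13*, *Hoxd13*, *Hoxd12*, *Hoxd11*, *Hoxd10*, *Hoxa13* and *Insl5*, and the proximal list *Osr2*, *Cyp2c55*, *Hoxb6*, *Hoxb7*, *Hoxb8*, *Mettl7b* and *Car1*. The distal score ran from -0.63 in female 9-week replicate 5 to 5.70 in male vehicle replicate 1, the proximal score from 2.25 in male vehicle replicate 5 to 8.39 in female 9-week replicate 5, and the scores were opposed (r = -0.84 over 30 libraries). Median distal scores were 2.39 and 2.89 in vehicle females and males, 2.85 and 3.12 at 9 weeks, and -0.20 and 1.57 at 15 weeks. The scores thus differed between groups as well as between mice. They also moved with other cell types, the distal score having r = 0.63 with the endothelial and 0.55 with the smooth muscle score. With the mean log2 CPM of 9 small intestine markers the proximal score had r = 0.90 and the distal score r = -0.69. The members had r = 0.71 (*Apoa1*), 0.64 (*Fabp1*), 0.55 (*Apob* and *Fabp2*), 0.38 (*Apoa4*), 0.27 (*Mttp*), 0.03 (*Rbp2*) and -0.29 (*Cd36*) with that small intestine score. Its part in the relations of the members to the regional scores was not tested.

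*Fabp2* was higher in libraries with more proximal and fewer distal transcripts. Its log2 CPM had r = -0.80 and rho = -0.87 with the distal score (permutation adjusted p = 3.2e-05 and 4e-05, two-sided, 16 relations) and r = 0.71 and rho = 0.85 with the proximal score (permutation adjusted p = 3.2e-05 and 4e-05). The smallest raw p that 100000 permutations can give was 1e-05. The relation held within groups, with r = -0.75 (permutation adjusted p = 0.00016) and 0.72 (0.000373) after group means were removed, and without the 2 libraries farthest from the median score (r = -0.79 and 0.65). With any 1 library left out, male vehicle replicate 1 included, r stayed between -0.83 and -0.79 for the distal and between 0.66 and 0.83 for the proximal score. Every distal marker alone was negative with *Fabp2* (7 of 7, rho from -0.85 to -0.57) and every proximal marker positive (7 of 7, rho from 0.80 to 0.90). In male vehicle replicate 1, with the highest distal score, *Fabp2* was 7.39 CPM, and in female 9-week replicate 5, with the lowest, it was 729 CPM. The former, rich in smooth muscle transcripts, was the highest library for *Hoxd10*, *Hoxd11*, *Hoxd12* and *Hoxd13*. *Hoxb13* and *Insl5* were highest in female vehicle replicate 1 and *Hoxa13* in female 9-week replicate 3. *Hoxd12* had 0 counts in 17 libraries, and the medians of *Hoxd11* and *Hoxd10* were 0.208 and 0.486 CPM. *Fabp2* also had r = -0.72 with the smooth muscle score and -0.70 with the mesenchyme score. With the mean log2 CPM of 7 colonocyte markers, *Guca2a* among them, it had r = 0.49, and 0.61 after group means were removed. That colonocyte score was lowest, at 9.00, in male vehicle replicate 1. The part of any of these cells in the relation was not tested. In tissue RNA of this kind, fewer cells of a type and less RNA per cell cannot be told apart.

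*Fabp1* followed the same scores. It had r = -0.80 with the distal score and 0.72 with the proximal score (permutation adjusted p = 3.2e-05 for both), rho = -0.80 and 0.71 (permutation adjusted p = 4e-05 and 5.33e-05), and within groups r = -0.72 and 0.68. Without the 2 farthest libraries r was -0.75 and 0.66. *Apoa1* had r = -0.65 and 0.70 (permutation adjusted p = 0.000107 and 3.2e-05), with rho = -0.69 and 0.76, at 0 to 88 counts per library and 3 or fewer counts in 19 of 30. *Apob* had r = -0.19 and 0.36 (adjusted p = 0.418 and 0.0954), *Rbp2* 0.12 and -0.03, *Mttp* 0.03 and 0.01, and *Apoa4* -0.27 and 0.24, all with permutation adjusted p above the threshold. *Cd36* alone of the 8 had a positive r past the threshold with the distal score (r = 0.65, rho = 0.56, permutation adjusted p = 0.000251 and 0.00368), and within groups r was 0.51 with adjusted p = 0.0657. With the proximal score *Cd36* had r = -0.38 and rho = -0.44 (permutation adjusted p = 0.0809 and 0.0326), and within groups r = -0.32 with adjusted p = 0.282.

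**Figure D2:**
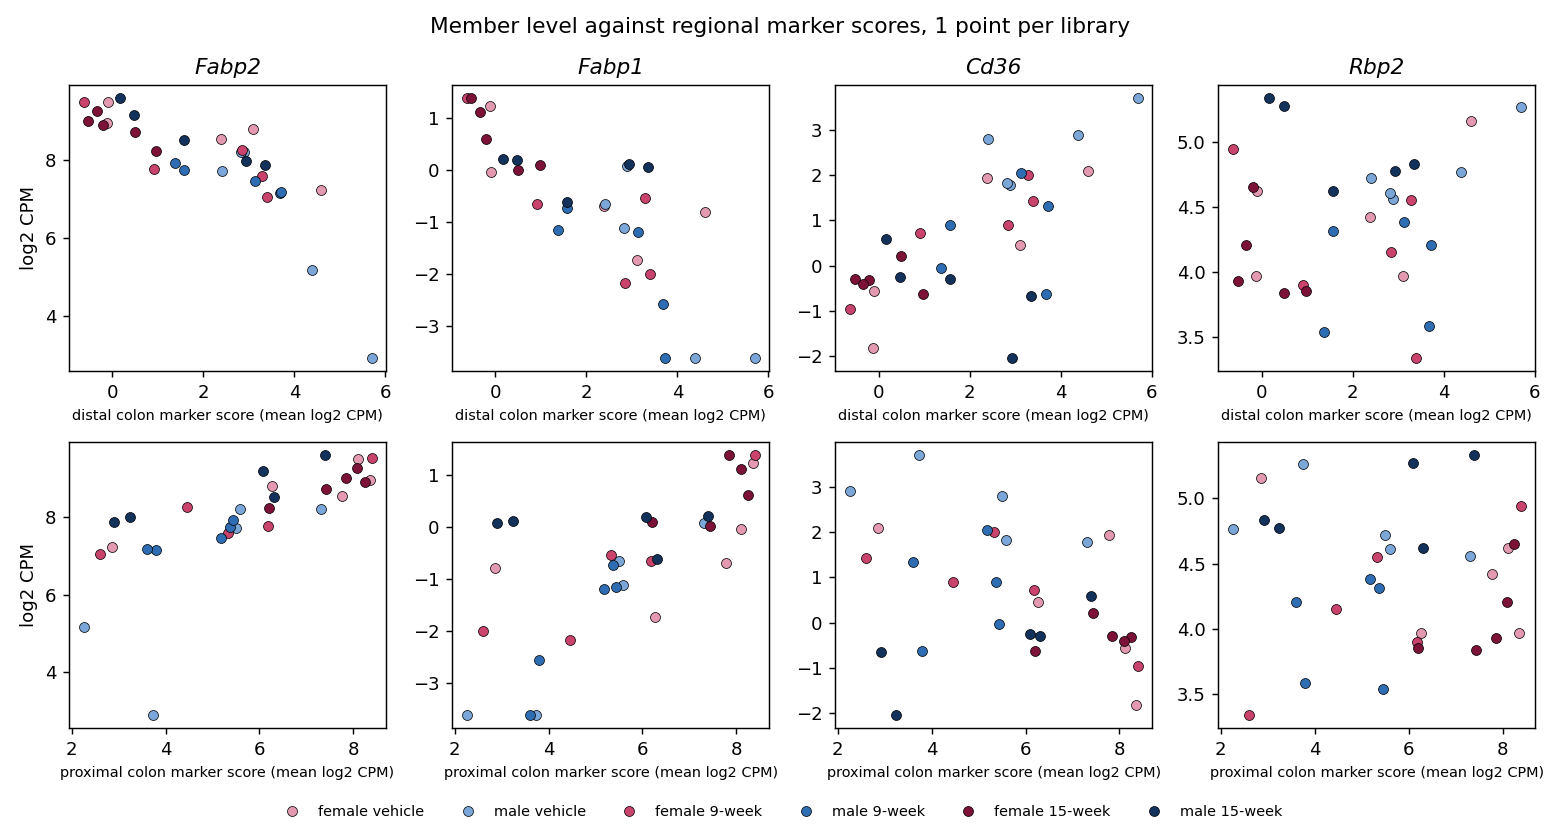
log2 CPM of *Fabp2*, *Fabp1*, *Cd36* and *Rbp2* (vertical axes) against the distal (top row) and proximal (bottom row) colon marker score, the mean log2 CPM of 7 genes each, with 1 point per library coloured by group. *Fabp2* and *Fabp1* fall with the distal score (r = -0.80 for both) and rise with the proximal score, *Cd36* rises with the distal score (r = 0.65), and *Rbp2* shows no relation (r = 0.12).

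*Rbp2* (ENSMUSG00000032454, chromosome 9 from 98486115 to 98509781, plus strand) was the steadiest of the 8, with 10.0 to 40.3 CPM over the series. In female vehicle libraries it was 35.5, 15.5, 24.5, 15.6 and 21.3 CPM and in male vehicle libraries 38.3, 26.3, 23.4, 24.3 and 27.1 CPM. At 9 weeks females had 10.0, 23.4, 17.7, 14.8 and 30.7 CPM and males 20.8, 11.9, 19.8, 11.5 and 18.4 CPM. All 5 males at 9 weeks lay below all 5 vehicle males, with a log2 fold change of -0.76 (SE 0.26) and adjusted p = 0.0597, so *Rbp2* was not called there. DESeq2 called this change (adjusted p = 0.0389). Of 10 edgeR fits that each left out 1 of the compared libraries 0 called it, and without male vehicle replicate 1 it was -0.62 with adjusted p = 0.182. It was called when female vehicle replicate 1, female 9-week replicate 1 or female 9-week replicate 5, which enter the estimate of spread alone, was left out (adjusted p from 0.0421 to 0.0429). At 15 weeks females had 25.1, 15.2, 14.2, 18.3 and 14.3 CPM and males 40.3, 24.5, 27.3, 28.4 and 38.5 CPM. The sexes overlapped at 15 weeks by 1 female library, and the male-over-female log2 fold change was 0.87 (SE 0.26, adjusted p = 0.129). The unadjusted p of this edgeR test, fitted over all 30 libraries, was 0.00239. The paper, which made its calls with DESeq2, reports *Rbp2* as significantly higher in males than in females at that time.

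*Apob* (ENSMUSG00000020609, chromosome 12 from 7977648 to 8016835, plus strand) encodes the protein around which chylomicrons are built. It was 201, 439, 381, 245 and 483 CPM in vehicle females and 105, 174, 250, 173 and 225 CPM in vehicle males. Of the 5 vehicle females 3 lay above every vehicle male, and the log2 fold change of males over females was -0.92 (SE 0.30, adjusted p = 0.0976). DESeq2 called this difference (adjusted p = 0.0434). Of 10 edgeR fits that each left out 1 of these libraries 1 called it, without female vehicle replicate 1 (adjusted p = 0.0245), and without male vehicle replicate 1 it was -0.77 with adjusted p = 0.440. At 9 weeks *Apob* ran from 160 to 291 CPM in females and from 96.5 to 246 CPM in males, and at 15 weeks from 91.0 to 303 CPM in females and from 108 to 236 CPM in males. Against vehicle the log2 fold change was -0.38 (SE 0.21, adjusted p = 0.235) at 9 weeks and -0.40 (SE 0.21, adjusted p = 0.173) at 15 weeks, with the sexes averaged.

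*Mttp*, which loads lipid onto apolipoprotein B (ENSMUSG00000028158, chromosome 3 from 138089854 to 138144968, minus strand), was low in every group. It ran from 1.25 CPM in male 15-week replicate 1 to 11.1 CPM in female vehicle replicate 2, and the group means lay between 2.86 ± 1.18 CPM in males at 15 weeks and 5.03 ± 3.56 CPM in vehicle females (SD, n = 5). Its exons overlap those of *Trmt10a* on the opposite strand in GENCODE M21, and the strand setting of the counting is not given in the sources used here.

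*Apoa1* and *Apoa4*, the surface apolipoproteins of chylomicrons (ENSMUSG00000032083, chromosome 9 from 46228580 to 46230466, and ENSMUSG00000032080, chromosome 9 from 46240696 to 46243459, both plus strand), were at or near 0. *Apoa1* had 0 to 88 counts, with 0 in 9 libraries and 3 or fewer in 19. *Apoa4* had 0 to 14 counts, with 0 in 21 libraries and 3 or fewer in 29. The highest library for both was female vehicle replicate 2, with 88 counts (3.57 CPM) of *Apoa1* and 14 counts (0.568 CPM) of *Apoa4*, and the next for *Apoa1* was female 15-week replicate 1 with 42 counts (2.01 CPM). Female vehicle replicate 2 was also the highest of the 30 libraries for *Mttp* and for 5 of 10 small intestine markers. Among them it had 83.7 CPM of sucrase-isomaltase (*Sis*) against a median of 1.45, while lactase (*Lct*) reached at most 0.553 CPM in any library. The summed level of the 10 markers ran from 205 to 682 CPM in vehicle females, 257 to 448 in vehicle males, 198 to 420 and 174 to 221 in females and males at 9 weeks, and 238 to 506 and 199 to 277 at 15 weeks. Their part in the *Apoa1* values was not tested. Of 7 liver markers, transthyretin (*Ttr*) was above 0 in every library, with 1.85 to 52.9 CPM, albumin (*Alb*) reached 17.3 CPM, and fibrinogen *Fgb* was at 0 counts in 29 libraries. *Apoa1* had r = -0.51 with the liver score, the mean log2 CPM of the 4 liver markers that were tested. No fold change is given for *Apoa1* or *Apoa4*, which were not tested.

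With all 30 libraries and no marker score in the fit, *Cd36* was the only member that edgeR called against vehicle. It was called lower at 15 weeks, where AOM/DSS and the later time cannot be told apart. A gene was called when its adjusted p from edgeR fell under 0.05, the log2 fold change exceeded 0.4 up or down, and at least one side of the comparison averaged FPKM (fragments per kilobase per 1000000) of 1 or more. At 9 weeks, with the sexes averaged, 0 of 6 tested members were called, where 8.29% of all tested genes were, and 1 of 6 had an unadjusted p under 0.05. DESeq2 also called 0 of 6. Every share of all tested genes given in these results is that of edgeR with all 30 libraries, and none is given for DESeq2. At 15 weeks 1 of 6 was called, *Cd36*, where 7.35% of all tested genes were called and 3.89% were called lower. Between 15 and 9 weeks 0 of 6 were called by edgeR or DESeq2 (2.32% of all tested genes), with 4 of 6 at an unadjusted p under 0.05. The shares of members called are close to these backgrounds. In the edgeR fits with all 30 libraries and no marker score, every tested member not called had adjusted p of 0.0597 or more. The FPKM minimum therefore kept none of them from a call in those fits. Whether *Mttp* and *Fabp1* (medians of 0.560 and 0.554 TPM) reached that minimum in each comparison is not given here. The median log2 fold change of the 6 was -0.36 at 9 weeks and -0.24 at 15 weeks against -0.02 and -0.03 over all tested genes.

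Within each sex the picture was similar. In males 0 of 6 members were called at 9 weeks (7.31% of all tested genes), with 2 at an unadjusted p under 0.05, and 1 of 6 at 15 weeks (8.92%, 4.55% lower). DESeq2 called 2 of 6 in males at 9 weeks, *Rbp2* and *Cd36*. The share of all tested genes that DESeq2 called there is not given, so this count is not read as a result about the members. In females 0 of 6 were called at 9 weeks (2.9% of all tested genes) and 0 of 6 at 15 weeks (0.0984%) by either tool, with 1 and 2 at an unadjusted p under 0.05.

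**Figure D3:**
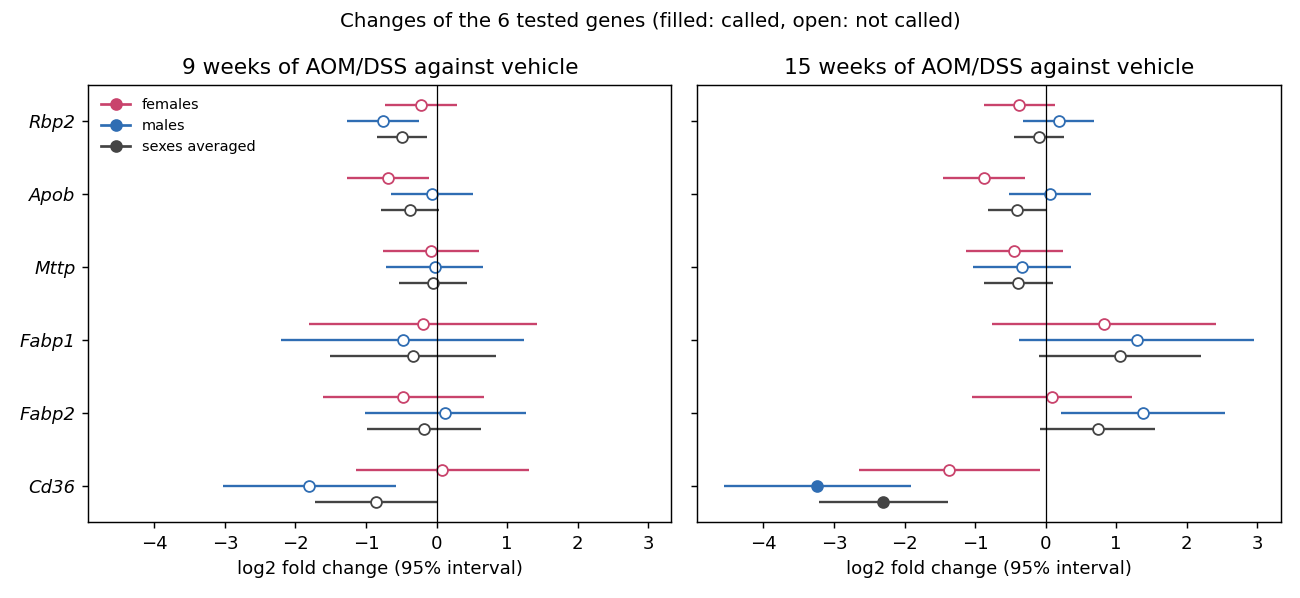
log2 fold changes against vehicle (horizontal axes, edgeR) of the 6 tested genes at 9 weeks (left) and 15 weeks (right) in females, males and with the sexes averaged. Bars are 95% intervals, and filled points were called. *Cd36* at 15 weeks lies at -3.23 in males and -2.30 with the sexes averaged and holds the 2 filled points.

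*Cd36*, the fatty acid translocase (ENSMUSG00000002944, chromosome 5 from 17781690 to 17888801, minus strand), was 4.16, 0.203, 0.592, 1.28 and 3.73 CPM in vehicle females and 12.9, 6.85, 3.33, 3.45 and 7.36 CPM in vehicle males. At 9 weeks it was 2.62, 3.92, 1.79, 1.57 and 0.430 CPM in females and 4.04, 0.568, 1.77, 0.890 and 2.43 CPM in males. At 15 weeks it was 0.719, 0.735, 1.08, 0.678 and 0.569 CPM in females and 1.42, 0.734, 0.161, 0.551 and 0.753 CPM in males. The lowest vehicle male lay above the highest male at 15 weeks, while vehicle females spread over both levels and overlapped with females at 15 weeks. In counts, the 30 libraries held 4 to 398 reads of *Cd36* with a median of 29, so the low libraries rest on few reads.

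In males the mean fell from 6.79 ± 3.92 CPM with vehicle to 0.725 ± 0.458 CPM at 15 weeks (SD, n = 5), a log2 fold change of -3.23 (SE 0.68, 95% interval -4.56 to -1.91) with adjusted p = 0.00381. The call was made in all 10 fits that left out 1 of these libraries, with adjusted p from 0.0026 to 0.0154, the highest being that without male vehicle replicate 1 (log2 fold change -2.86). At 9 weeks the change in males was -1.80 (SE 0.63) with adjusted p = 0.0646, and it was called without female vehicle replicate 2, male vehicle replicate 4, female 9-week replicate 5 or male 9-week replicate 1 (adjusted p from 0.0413 to 0.0490). Without male vehicle replicate 1 it was -1.43 with adjusted p = 0.194. In females it was -1.36 (SE 0.65, adjusted p = 0.448) at 15 weeks and 0.08 (SE 0.62, adjusted p = 0.973) at 9 weeks. The responses of the sexes were not shown to differ, the interaction being -1.87 (SE 0.91, adjusted p = 0.650) at 15 weeks and -1.89 (SE 0.88, adjusted p = 0.657) at 9 weeks. With the sexes averaged the change was -0.86 (SE 0.44, adjusted p = 0.195) at 9 weeks, -2.30 (SE 0.47, adjusted p = 0.00228) at 15 weeks and -1.44 (SE 0.46, adjusted p = 0.0631) from 9 to 15 weeks. In females, and between 9 and 15 weeks, no group averaged 1 FPKM, so *Cd36* could not have been called there at any adjusted p.

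Male vehicle replicate 1, the library with the smooth muscle transcripts, had the highest *Cd36*. Without it the averaged change at 15 weeks was -2.11 with adjusted p = 0.00551, but *Cd36* was no longer called because its mean FPKM in vehicle mice went from 1.15 to 0.844, under the minimum of 1. The group that carries *Cd36* past that minimum was vehicle males, at 1.83 FPKM against 0.140 to 0.559 FPKM in the other 5 groups.

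*Cd36* also moved with the endothelial genes of the libraries. Its log2 CPM had r = 0.81 with the mean of 8 endothelial markers, 0.78 with mesenchyme and 0.73 with smooth muscle markers over the 30 libraries, and 0.75, 0.71 and 0.55 after group means were removed. These are descriptions with no test. The summed level of the 8 endothelial markers was 9.45 to 46.1 CPM in vehicle females, 27.1 to 88.7 in vehicle males, 13.7 to 46.4 and 19.3 to 56.1 in females and males at 9 weeks, and 7.51 to 15.1 and 11.9 to 32.5 at 15 weeks. Of these 8 markers 2 were called lower at 15 weeks with the sexes averaged and 2 in males. Of 8 smooth muscle markers 7 were called lower with the sexes averaged and 8 in males, and of 10 mesenchyme markers 5 and 8, with none called higher. Summed smooth muscle markers ran from 34.3 to 5489 CPM in vehicle males and from 2.14 to 69.4 CPM in males at 15 weeks, and mesenchyme markers from 112 to 1330 and from 13.2 to 168.1 CPM. The values of 5489 and 1330 CPM are those of male vehicle replicate 1, and the vehicle male medians were 78.8 and 197 CPM. The defining markers *Pecam1* and *Vwf* were above 0 in every library, *Cdh5* and *Kdr* were at 0 in 1 library each, and *Cldn5* in 9. In male vehicle replicate 1, where *Cd36* was highest, the fat cell marker *Adipoq* had no counts, while *Plin4*, a lipid droplet gene of fat cells and muscle, was at its highest (12.98 CPM against a median of 0.531). Of 7 tested adipocyte markers 1 was called lower at 15 weeks with the sexes averaged and 2 in males. The 9 adipocyte markers summed to 26.5 to 51.5 CPM in vehicle males and 9.23 to 40.0 CPM in males at 15 weeks. Among them *Cidec* was lowest in male vehicle replicate 1 (1.01 CPM) and highest in male 15-week replicate 1 (35.5 CPM). *Cd36* had r = 0.46 with the score of the 7 tested adipocyte markers. With the score of 8 macrophage markers r was 0.50, and of these 0 were called at 15 weeks with the sexes averaged and 1, lower, in males.

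When a marker score was added to the fit, the fall of *Cd36* at 15 weeks was smaller. With the distal score it was -1.20 (SE 0.52, adjusted p = 0.199) with the sexes averaged and -2.14 (SE 0.66, adjusted p = 0.0601) in males, and with the endothelial score -1.06 (SE 0.39, adjusted p = 0.0853) and -1.60 (SE 0.56, adjusted p = 0.0832), so neither was called. With the mesenchyme score it was called with the sexes averaged (-1.34, SE 0.39, adjusted p = 0.0295) and not in males (-1.58, SE 0.59, adjusted p = 0.115). With the proximal score both were called, at -2.01 (SE 0.48, adjusted p = 0.0067) and -2.98 (SE 0.67, adjusted p = 0.00387). The scores differ between groups themselves, so these fits do not say which of them the fall of *Cd36* belongs to. The endothelial and proximal scores were added after the data were seen.

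**Figure D4:**
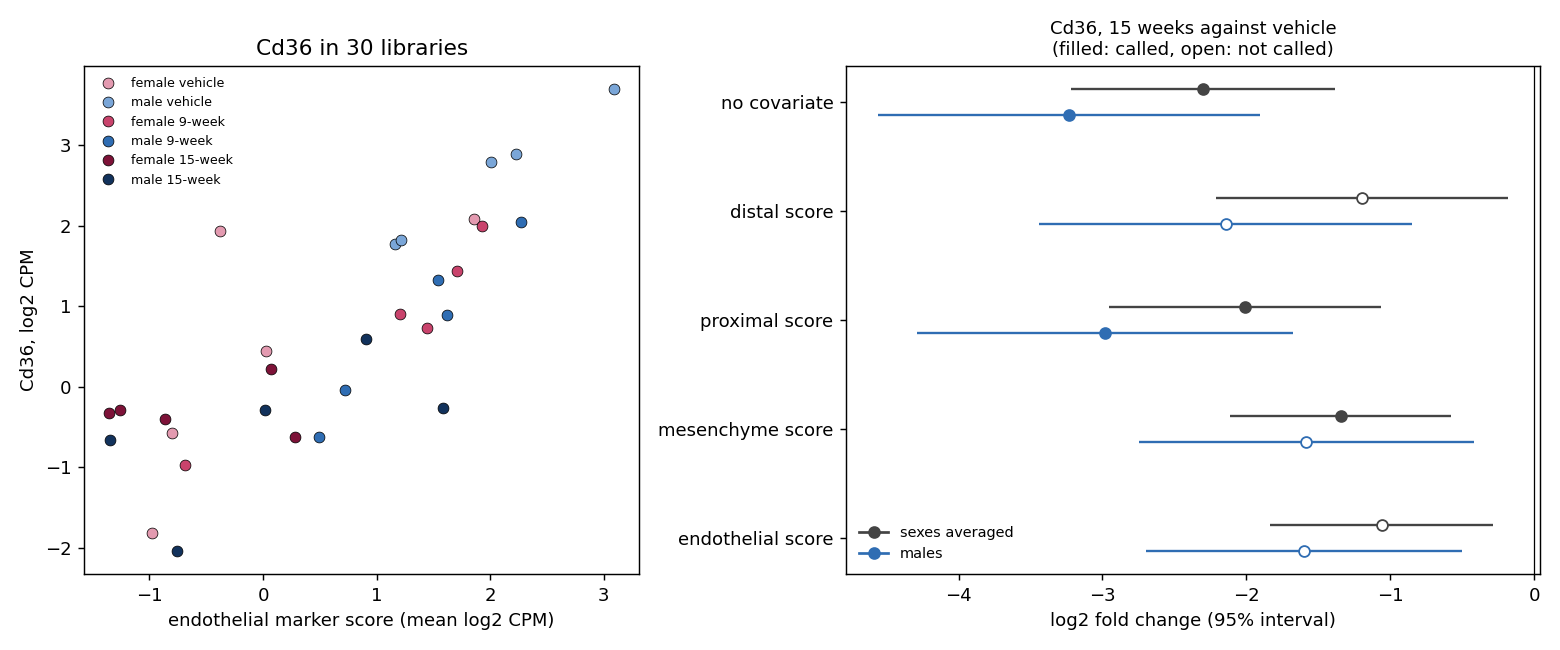
Left, log2 CPM of *Cd36* against the endothelial marker score (mean log2 CPM of 8 genes), 1 point per library coloured by group, with r = 0.81 over 30 libraries. Right, log2 fold change of *Cd36* at 15 weeks against vehicle (edgeR, 95% interval, filled where called) with no covariate and with each of 4 marker scores in the fit, where the male change moves from -3.23 to between -2.98 and -1.58.

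The 250 bases before the *Cd36* start in RefSeq (GRCm38.p6, chr5:17835897-17836146, minus strand, 5′ to 3′) are shown as those of the only member that edgeR called against vehicle with all libraries and no marker score. They hold no match to CAAAGNNCA on either strand, and so no capitals. This start lies inside the span of the gene given above, and its other starts were not examined.
Cd36: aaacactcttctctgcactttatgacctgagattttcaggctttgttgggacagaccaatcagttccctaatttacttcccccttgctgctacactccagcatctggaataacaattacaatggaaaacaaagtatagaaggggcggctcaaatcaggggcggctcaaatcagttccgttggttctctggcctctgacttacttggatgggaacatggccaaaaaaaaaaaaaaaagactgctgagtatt

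Neither *Fabp2* nor *Fabp1* was called at either time. For *Fabp2* the averaged log2 fold change was -0.17 (SE 0.41, adjusted p = 0.824) at 9 weeks and 0.74 (SE 0.41, adjusted p = 0.207) at 15 weeks, and at 15 weeks 0.09 (SE 0.58, adjusted p = 0.965) in females and 1.39 (SE 0.59, adjusted p = 0.109) in males. Without male vehicle replicate 1 the averaged 15-week change was 0.58 and that in males 1.08, and with the distal score in the fit the averaged change was -0.12. For *Fabp1* it was -0.34 (SE 0.60, adjusted p = 0.764) and 1.06 (SE 0.59, adjusted p = 0.202). From 9 to 15 weeks the changes were 0.91 (SE 0.41, adjusted p = 0.181) for *Fabp2*, 1.39 (SE 0.59, adjusted p = 0.153) for *Fabp1* and 0.40 (SE 0.18, adjusted p = 0.184) for *Rbp2*. All 3 were called without female 9-week replicate 5, the library with the lowest distal score, at 1.21, 1.96 and 0.53 with adjusted p = 0.0440, 0.0243 and 0.0412. Against vehicle the averaged change of *Rbp2* was -0.49 (SE 0.18, adjusted p = 0.0663) at 9 weeks and -0.09 (SE 0.18, adjusted p = 0.755) at 15 weeks. Without that library the 9-week change of *Rbp2* was -0.61 and called, with adjusted p = 0.0150, and without female vehicle replicate 2 or 4 it was called with adjusted p = 0.0458 and 0.0485. The other 17 of 20 such fits did not call it, among them those without female vehicle replicate 1 (-0.38, adjusted p = 0.155) and male vehicle replicate 1 (-0.42, adjusted p = 0.126). *Mttp* changed by -0.05 (SE 0.25, adjusted p = 0.917) and -0.39 (SE 0.25, adjusted p = 0.271).

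Between males and females edgeR called 0 of 6 members with vehicle (0.178% of all tested genes), at 9 weeks (0.0492%) and at 15 weeks (0.184%), with 3, 0 and 1 of 6 at an unadjusted p under 0.05. DESeq2 called *Apob* with vehicle and no member at 9 or 15 weeks. In vehicle mice the male-over-female log2 fold change was 1.79 (SE 0.63, adjusted p = 0.125) for *Cd36* and -1.37 (SE 0.59, adjusted p = 0.206) for *Fabp2*, the latter being -1.06 with adjusted p = 0.482 without male vehicle replicate 1. Vehicle males also had higher endothelial, mesenchyme and smooth muscle scores than vehicle females (medians 2.01 against -0.38, 3.89 against 1.64 and 2.65 against -0.59), and with the endothelial score in the fit the *Cd36* difference was 0.20. Without female vehicle replicate 1 *Cd36* was called, at 2.32 with adjusted p = 0.0314, and without male vehicle replicate 1 it was 1.42 with adjusted p = 0.475. At 9 and 15 weeks *Cd36* differed between the sexes by -0.09 (SE 0.62) and -0.08 (SE 0.66). The interaction of sex with AOM/DSS called 0 of 6 members and 0% of all tested genes at both times by edgeR, and DESeq2 also called 0 of 6, with 1 of 6 at an unadjusted p under 0.05 at each.

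Among 56 other genes of lipid and retinoid handling, 54 were tested. The list was chosen with earlier results of these data known. Its shares of called genes are therefore descriptions and not independent support for a change of lipid genes. At 9 weeks, with the sexes averaged, 3 were called higher and 4 lower, and at 15 weeks 7 higher and 2 lower, which is 13.0% and 16.7% of those tested against 8.29% and 7.35% of all tested genes. The 9-week count of 7 was 13 with DESeq2, 5 when female 9-week replicate 4 was left out, and 11 when replicate 5 of that group was. The share of all tested genes called under these 3 settings is not given here. The list's median log2 fold change was -0.02 and 0.13. Genes that rebuild triglyceride were among those called higher. *Dgat2*, which makes triglyceride from diglyceride, went from 49.0 to 108 CPM at 9 weeks (log2 fold change 1.14, SE 0.16, adjusted p = 1.45e-05) and to 98.1 CPM at 15 weeks (1.004, SE 0.16, adjusted p = 0.00026). *Mogat2*, the intestinal monoacylglycerol acyltransferase, rose at 15 weeks by 1.18 (SE 0.40, adjusted p = 0.0417). Of the 9 genes of activation and re-esterification 1 rose at 9 weeks and 3 rose at 15 weeks, and none fell.

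The sterol exporters fell. *Abcg5* went from 17.8 CPM with vehicle to 7.23 CPM at 9 weeks (log2 fold change -1.29, SE 0.33, adjusted p = 0.00738) and 4.83 CPM at 15 weeks (-1.90, SE 0.34, adjusted p = 0.000658), and its partner *Abcg8* changed by -1.02 (SE 0.31, adjusted p = 0.0244) and -1.48 (SE 0.32, adjusted p = 0.00345). The fatty acid transporter and very long chain acyl-CoA synthetase *Slc27a2* rose at 9 weeks by 1.32 (SE 0.25, adjusted p = 0.000401). Of 8 tested genes of chylomicron assembly and other apolipoproteins 1 was called at each time, *Apoe* at 9 weeks (1.08, SE 0.35, adjusted p = 0.0359) and *Apoc2*, the lipoprotein lipase cofactor, at 15 weeks (1.35, SE 0.32, adjusted p = 0.00623), both higher. Of 12 regulators *Ppara*, the fatty acid sensor, fell at 9 weeks (log2 fold change -1.12, SE 0.34, adjusted p = 0.0235), and 2 rose at 15 weeks. None of the 5 genes of lipid droplets was called at either time. Of the 54 genes 0 were called by edgeR between 15 and 9 weeks and 3 by DESeq2, whose share of all tested genes is not given. In males at 15 weeks 7 were called higher and 4 lower, which is 20.4% against 8.92% of all tested genes. In females 0 were called, where 0.0984% of all tested genes were, and the interaction with sex called 0 of 54, as of all 16261 tested genes (1245 at an unadjusted p under 0.05). The macrophage markers, genes of cells that also make *Apoe*, were called higher for 4 of 8 at 9 weeks and none lower, and their summed level was 17.7 to 96.9 CPM in vehicle females, 43.9 to 194 in vehicle males, and 54.5 to 197 and 96.6 to 216 in females and males at 9 weeks. Their part in the rise of *Apoe* was not tested.

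The genes most like each member were ranked by Spearman's rho of log2 CPM over the 30 libraries among all tested genes. For *Fabp2* they were *Guca2a* (0.94), which encodes guanylin and is also among the 7 colonocyte markers, *Mrpl10* (0.94) and *Prnp* (0.94). For *Fabp1* they were *Stard5* (0.88), *Sdhb* (0.87) and *Pgm2* (0.84). The genes nearest to *Cd36* were *Esam* (0.89), an endothelial adhesion molecule that is also among the 8 endothelial markers, *Tmtc1* (0.88) and *Pamr1* (0.88). *Rbp2* was nearest to *Ubtf* (0.90), *Wwp2* (0.82) and *Tango2* (0.79), *Apob* to *Cxadr* (0.79), *Snx13* (0.75) and *Smurf2* (0.74), and *Mttp* to *Gosr1* (0.78), *Tmem71* (0.78) and *Armc8* (0.77). Over the libraries *Guca2a* ran from 6.98 to 11.32 on the log2 CPM scale.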

How the data were processed

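RNA of scraped colon epithelium from 30 mice was sequenced as stranded poly(A) libraries. The authors aligned reads with STAR to GRCm38, made gene counts with featureCounts and FPKM and TPM with StringTie, and deposited the count table unnormalised. Duplicates were not removed, and the strand setting of counting is not given in the sources used here. From the deposited FPKM files 6 genes were missing in at least 1 library, and 11 to 20 gene lines were repeated per file. CPM used TMM-scaled library sizes, and log2 CPM had a prior count of 2.

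Counts were tested with edgeR 4.0.16 (quasi-likelihood, TMM, 1 mean per group over all 30 libraries, low-count filter, Benjamini-Hochberg adjustment over 16261 genes) in R 4.3.3. DESeq2 1.42.0 and other settings were alternatives. The method was tested on simulated data. Correlations used scipy 1.17.1 with 100000 permutations. No pair of libraries within a group (60 pairs) was a copy. Labels name separate mice, 1 library each.

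Members and lists were chosen with earlier results of these data known. All 8 members were named, with the 3 called list genes of largest change in each direction and the 3 genes most like each tested member.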

Additional observations from a re-analysis of the deposited data

Results flagged for a closer look

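Among 48 sets of 5 libraries (8 genes in 6 groups) 2 held a library far from the other 4, and chance alone gives about 1 in 20. *Apob* in male 15-week replicate 5 was 6.76 on the log2 CPM scale, against a group median of 7.68. *Fabp1* in male 15-week replicate 2 was -0.62 against a group median of 0.12, which rests on few reads.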

How the results depend on the processing

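Leaving out the filter on low counts or the fold change threshold, or using median-ratio size factors, moved no count of called members, and the fall of *Cd36* at 15 weeks with the sexes averaged was called under every setting tried except the distal score, the endothelial score and the fit without male vehicle replicate 1. With the distal score as covariate 0 members were called at 15 weeks with the sexes averaged and 0 in males, and 14 and 5 of the lipid list at 9 and 15 weeks. With the endothelial score the counts were 0 and 0 at 15 weeks, 1 with the sexes averaged and 1 in males at 9 weeks, and 11 of the lipid list at 9 weeks. With the mesenchyme score 1 and 1 were called at 9 weeks and 0 in males at 15 weeks. With the proximal score 2 were called in males at 9 weeks and 2 at 15 weeks, and 15 of the lipid list at 9 weeks. DESeq2 called 2 members in males at 9 weeks, 1 between the sexes with vehicle, and 13 of the lipid list at 9 weeks and 3 between 15 and 9 weeks. With only the compared libraries 1 member was called in males at 9 weeks and 2 of the list between 15 and 9 weeks, where 1 was called without the FPKM minimum. Counts under these settings, and in the fits that leave out 1 library, are given without the share of all tested genes called under the same setting. They are therefore not read as results about the members or the list. The causes were not tested.

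Replicate numbers did not pair the libraries. Same-numbered libraries of 2 groups had correlations from -0.58 to 0.47 with 12 of 75 over 0.1, and 4 of 30 libraries correlated best with their own number. With the replicate block 1 member, *Rbp2*, was called in males at 9 weeks.

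Values that turned direction were small or uncalled. With the mesenchyme, proximal and endothelial scores *Fabp2* at 9 weeks was 0.29, 0.28 and 0.032, and *Cd36* in females at 9 weeks was -0.96, -0.055 and -0.88. With the mesenchyme and endothelial scores *Mttp* at 9 weeks was 0.028 and 0.026 and *Rbp2* at 15 weeks 0.025 and 0.046. With the mesenchyme score *Fabp1* at 9 weeks was 0.11, with the distal score *Fabp2* at 15 weeks was -0.12, and with the endothelial score *Cd36* from 9 to 15 weeks was 0.040. Within groups *Rbp2* had r = -0.044 with the distal and 0.13 with the proximal score, and *Mttp* -0.081 with the proximal score. On log2(TPM + 0.1) *Apob* had r = 0.0019 with the distal and *Mttp* r = -0.197 with the proximal score. Without the 2 farthest libraries *Mttp* had r = -0.062 with the distal score. *Cd36* crossed the threshold without turning direction, with r = 0.51 within groups for the distal score (no longer past it) and -0.47 on log2(TPM + 0.1) for the proximal score (now past it).

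Leaving out 1 library at a time gave 0 to 1 members called at 9 weeks, 0 to 1 at 15 weeks, 0 to 3 between 15 and 9 weeks, 0 to 2 in males at 9 weeks and 0 to 2 between the sexes with vehicle, and 5 to 11 of the lipid list at 9 weeks and 0 to 7 between 15 and 9 weeks. Fold changes that crossed 0 included those of *Cd36* in females at 9 weeks (-0.28 to 0.61) and between the sexes at 15 weeks (-0.45 to 0.19) and 9 weeks (-0.54 to 0.27), *Fabp1* (-0.89 to 0.028) and *Mttp* (-0.17 to 0.20) at 9 weeks, and *Rbp2* at 15 weeks (-0.16 to 0.023). Correlations ran from -0.085 to 0.185 (*Mttp*) and -0.00078 to 0.203 (*Rbp2*) with the distal score, and from -0.154 to 0.108 (*Mttp*), -0.167 to 0.047 (*Rbp2*), 0.291 to 0.479 (*Apob*) and -0.510 to -0.304 (*Cd36*) with the proximal score. At 0 to 58 counts *Fabp1*, and at 4 to 398 counts *Cd36*, are limited by depth.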
